A study of Mus musculus with 2 samples.

Results

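Trp63-high myonuclei are nuclei of skeletal muscle fibres that carried at least 5 unique molecular identifiers (UMIs, each marking 1 captured RNA molecule) of Trp63 and 0 UMIs of Atf3. They were picked among nuclei that passed a gate of at least 500 UMIs, at most 10% mitochondrial UMIs and fewer than 3 UMIs summed over Pdgfra, Dcn, Col1a1, Col3a1, Pecam1, Flt1, Ptprb and Ptprc, which mark fibro-adipogenic progenitors (FAPs), endothelial cells and leukocytes. The rule found 178 of 3502 gated nuclei in the control library (Ctrl) and 218 of 3816 in the library of the conditional Net39 knockout (cKO). Trp63, Atf3 and the 8 marker genes chose the nuclei, so their values are descriptions.

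The study measured RNA in single nuclei of the gastrocnemius and plantaris (GP), a calf muscle group, by 3′-end droplet sequencing. Net39, encoded by Plpp7, is a nuclear envelope protein of muscle. The labels give B6C3F1 as the background of both groups, and the methods describe founders from B6C3F1 zygotes that were mated to C57BL/6N mice. Both groups had loxP sites around the first exon of Plpp7 on both alleles and were given tamoxifen. The cKO mice also carried HSA-CreERT2, a tamoxifen-dependent Cre driven by the human skeletal actin promoter in muscle fibres, whereas Ctrl mice had none. Muscles were taken at 5 months of age, with tamoxifen given 3 months earlier. Each group had 1 library of sorted nuclei pooled from 3 muscles, so there were no replicates, no test was possible, and every 95% interval below covers counting error only. The libraries held 3863 Ctrl and 3994 cKO barcodes with 10410316 and 8446070 UMIs, and 5 barcodes occurred in both, none of them a Trp63-high myonucleus.

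Trp63 encodes p63, a transcription factor of the p53 family that binds much the same DNA elements as p53. It is best known as the factor that maintains the basal layer of stratified epithelia, and in muscle it has been tied to stress and remodeling of fibres. Genes that p53 family factors can switch on include Mdm2, the ubiquitin ligase that degrades p53, Phlda3, an inhibitor of Akt signaling, and Eda2r, the receptor of the tumor necrosis factor receptor family that binds ectodysplasin A2. Fibre type is read from the adult myosin heavy chains, with Myh7 in slow type I fibres, Myh2 in type IIa, Myh1 in type IIx and Myh4 in the fast type IIb fibres that dominate the GP.

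Plpp7, the targeted gene, was at 40.3 CPM (a gene's UMIs scaled to a total of 1000000; 28.3 to 55.9) in the Trp63-high nuclei of Ctrl and 17.7 CPM (9.89 to 29.1) in those of cKO. Its log2 ratio of cKO over Ctrl was -1.19 (-2.17 to -0.29), beside -0.28 (-0.73 to 0.17) in nuclei of the same libraries with 0 Trp63 and 0 Atf3 UMIs matched by total UMIs. UMIs counted at the 3′ end do not show whether the first exon was deleted.

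Fibre markers were near the level of matched nuclei. The 10 myofibre markers (Ttn, Neb, Ckm, Acta1, Dmd, Ryr1, Trdn, Mybpc1, Tnnt3 and Myom1) summed to 74887 CPM in the Trp63-high nuclei of Ctrl and 70448 CPM in those of cKO, beside 82139 and 73726 CPM in the matched nuclei. In nuclei that the marker gate removed, the sums were 48106 and 38450 CPM, and 100% of those in Ctrl and 98.9% of those in cKO held such UMIs, so detection alone does not mark a fibre nucleus. Of 9 markers of basal epithelium (Krt5, Krt14, Krt15, Dsp, Dsg3, Dsc3, Pkp1, Cdh1 and Epcam), all were at 0 UMIs in the Trp63-high nuclei of both libraries. For satellite cell markers the sum was 71.7 CPM in Ctrl and 51.8 CPM in cKO, for adipocyte markers 10.1 and 2.36 CPM, and for tenocyte markers 10.1 and 3.53 CPM. FAP, endothelial and immune markers include genes of the gate, which capped their UMIs, so their low levels say nothing of identity. The 7 markers of smooth muscle and pericytes summed to 259 CPM in Ctrl and 227 CPM in cKO, with UMIs in 62.9% and 50% of the Trp63-high nuclei, beside 274 and 320 CPM in matched and 290.1 and 191 CPM in removed nuclei. Of these, Myh11, Acta2, Pdgfrb and Kcnj8 were at 0 in the Ctrl nuclei, and Acta2 and Kcnj8 in the cKO nuclei. Doublets were kept, as the rule does, and among the 8% of nuclei with the highest Scrublet doublet scores were 21 of the 178 Ctrl and 26 of the 218 cKO members (11.8% and 11.9%).

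Trp63-high myonuclei made up 5.08% (4.38 to 5.86) of the gated Ctrl nuclei and 5.71% (5.00 to 6.50) of those of cKO. The difference of 0.63 points (cKO minus Ctrl) had an interval of -0.87 to 2.12. Trp63 (ENSMUSG00000022510; mm10/GRCm38, chromosome 16, 25683763 to 25892102, plus strand) was seen in 48.0% of gated Ctrl and 46.2% of gated cKO nuclei, mostly at 1 or a few UMIs. The Trp63-high nuclei carried 5 to 36 Trp63 UMIs in Ctrl with a median of 6, and 5 to 48 in cKO with a median of 7. Together they held 32.5% of all Trp63 UMIs of gated nuclei in Ctrl and 36.8% in cKO. The Trp63 level summed over them was 1474 CPM for Ctrl and 2207 CPM for cKO. At the threshold, 62 Ctrl and 60 cKO nuclei had exactly 5 Trp63 UMIs, with median levels of 1624 and 1735 CPM. Just below it, 113 Ctrl and 100 cKO nuclei had 4, with medians of 1216 and 1668 CPM. The rule therefore cut through a continuous range of counts.

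A fixed minimum of UMIs selects deep nuclei, and the share was larger in deeper nuclei of both libraries, up to 10000 UMIs. No nucleus under 1000 UMIs was Trp63-high, which allows a share of up to 1.57% in Ctrl and 0.540% in cKO. Between 2000 and 3000 UMIs, 4.28% of Ctrl and 5.64% of cKO nuclei were Trp63-high. From 3000 to 4000 UMIs the shares were 6.19% (4.12 to 8.88) and 13.6% (10.2 to 17.7), and from 4000 to 6000 UMIs 11.2% (7.98 to 15.2) and 23.8% (18.5 to 29.8). In the bins from 3000 to 6000 UMIs the Ctrl and cKO intervals did not overlap. Above 10000 UMIs, 19 of 33 Ctrl nuclei and 4 of 17 cKO nuclei qualified. These 19 deep Ctrl nuclei had a median of only 508 CPM of Trp63, close to the 439 CPM of all gated Ctrl nuclei, and held 29.3% of the UMIs of the Ctrl members. Among all members, 5 in Ctrl and 1 in cKO were below the Trp63 level of their gated library.

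**Figure D1:**
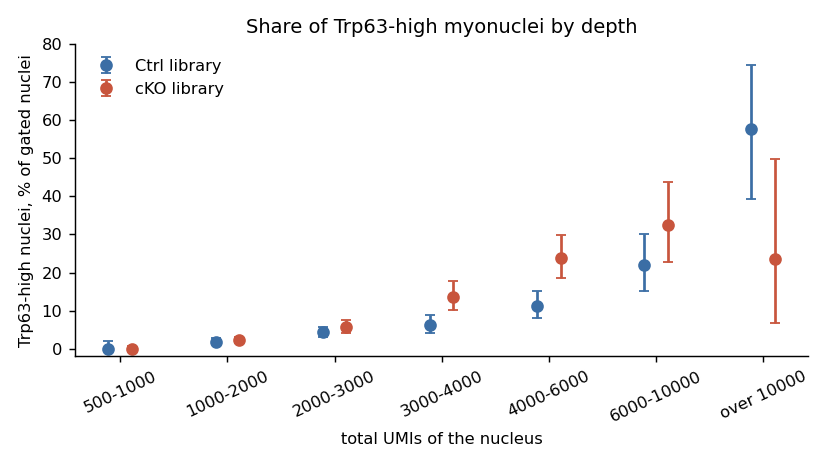
Share of gated nuclei that were Trp63-high (y axis, percent) in bins of total UMIs per nucleus (x axis), as points with exact 95% binomial intervals, for the Ctrl library (blue) and the cKO library (red). The share is larger at each step of depth in both libraries up to 10000 UMIs, and cKO is at 23.8% against 11.2% in Ctrl at 4000 to 6000 UMIs.

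With nuclei thinned to 1 depth, the gap between the libraries was wider. Each nucleus was thinned at random to 2000 UMIs at the same minimum of 5. Atf3 was read before thinning, so the condition of 0 Atf3 UMIs still depended on depth. Of 1899 Ctrl nuclei 2.90% (2.19 to 3.75) and of 1445 cKO nuclei 5.33% (4.23 to 6.62) qualified. A further 1603 Ctrl and 2371 cKO nuclei were too shallow to enter. The difference was 2.43 points (bounds 0.47 to 4.43). With nuclei thinned to 1000 UMIs and a minimum of 3, it was 1.52 points (bounds 0.18 to 2.86). Free RNA can give a nucleus UMIs of a gene it does not express, so the same count was made in nuclei that the marker gate had removed. Among removed nuclei under 2000 UMIs, 0 of 67 and 0 of 100 in Ctrl and 0 of 23 and 0 of 29 in cKO qualified (500 to 1000 and 1000 to 2000 UMIs). From 2000 to 6000 UMIs, 4 of 118 qualified in Ctrl (3.39%, median 3065 UMIs) and 1 of 35 in cKO (2.86%, median 3104 UMIs), against 6.04% and 10.9% of gated nuclei (medians 2828 and 2832 UMIs). The Ctrl interval of the removed nuclei, 0.931% to 8.45%, included the gated share, and that of cKO, 0.0723% to 14.9%, did too. Above 6000 UMIs, 13 of 46 removed Ctrl nuclei qualified (28.3%), close to the 29.2% of gated Ctrl nuclei, and Ttn, a fibre transcript, took 4.12% of UMIs in those removed nuclei against 0.365% in the removed nuclei under 1000 UMIs.

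Nuclei with at least 5 Trp63 UMIs that also had Atf3, an immediate early transcription factor induced by stress, were left out by the rule. They numbered 9 in Ctrl and 54 in cKO, or 4.81% and 19.9% of all gated nuclei at 5 or more Trp63 UMIs. In the 54 cKO nuclei Eda2r was at 310 CPM (250 to 381), Ncam1 at 504 CPM (426 to 592) and Mdm2 at 269 CPM (213 to 335). In the 9 Ctrl nuclei Eda2r had 1 UMI, Ncam1 was at 280 CPM (153 to 469) and Mdm2 at 59.9 CPM (12.4 to 175).

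Each Trp63-high nucleus was next set beside gated nuclei of its own library with 0 Trp63 and 0 Atf3 UMIs. The main comparison used the 3 nearest nuclei in total UMIs, 534 in Ctrl and 654 in cKO. Deep nuclei without Trp63 were few, so the match stayed incomplete, with medians of 3886 against 2984 UMIs in Ctrl and 3624 against 2313 in cKO. Shares of nuclei are therefore given for pairs within 10% of each other in total UMIs, 154 in Ctrl (medians 3399 and 3399) and 190 in cKO (3245 and 3244), a setting added after the data were seen.

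Compared with partners of like depth, Trp63-high nuclei had Myh4 as main myosin more often in Ctrl, where the intervals overlap slightly, and less often in cKO. After thinning to 1000 UMIs the intervals were apart in Ctrl alone, and only among nuclei that kept 3 myosin UMIs. The main myosin of a nucleus was the one with 60% or more of its Myh7, Myh2, Myh1 and Myh4 UMIs, given 3 or more such UMIs in all. Among all gated nuclei, Myh4 led in 60.7% of Ctrl and 42.8% of cKO. In Ctrl pairs, 74.7% of Trp63-high nuclei had Myh4 as their main myosin (67.0 to 81.3) against 59.7% of their partners (51.5 to 67.6). Myh2 was the main myosin of 1.30% (0.158 to 4.61) against 10.4% (6.06 to 16.3), and Myh1 of 13 against 17 nuclei of 154. Myh7 led in 0 of 154 on either side, which allows up to 1.95%. With a minimum of 8 Trp63 UMIs, Myh4 led in 64.3% of Ctrl members (50.4 to 76.6) and 60.1% of their matched nuclei (52.3 to 67.6), intervals that overlap. At the minimum of 5, the Ctrl Trp63-high nuclei were thus mostly type IIb by myosin, with few type IIa nuclei among them.

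In cKO pairs the direction for Myh4 was the opposite. Myh4 led in 32.1% of Trp63-high nuclei (25.5 to 39.2) against 46.8% of partners (39.6 to 54.2), and Myh1 in 22.1% (16.4 to 28.7) against 13.2% (8.70 to 18.8). Myh2 led in 8.95% against 12.6% and Myh7 in 7.89% against 7.37%, and mixed nuclei made 10.5% of both. Nuclei with too few myosin UMIs to assign were 18.4% against 9.47% (13.2 to 24.7 and 5.71 to 14.6). After thinning to 1000 UMIs, Myh4 led in 23.4% of all cKO Trp63-high nuclei (17.9 to 29.6) against 32.6% of all matched nuclei (29.0 to 36.3). In Ctrl it led in 35.4% (28.4 to 42.9) against 34.1% (30.1 to 38.3), and the intervals overlap in both libraries. Too few myosin UMIs were then left to assign 50.5% of cKO Trp63-high and 35.3% of cKO matched nuclei. In Ctrl these shares were 56.2% and 45.5%. Among nuclei that kept 3 myosin UMIs, Myh4 led in 48.8% of cKO Trp63-high nuclei (39.6 to 58.0) and 51.1% of matched nuclei (46.2 to 56.0). In Ctrl it led in 81.9% (72.0 to 89.5) against 63.2% (57.6 to 68.5). Seen from the other side, Trp63-high nuclei made up 19.0% of Myh1-led cKO nuclei of 2000 to 6000 UMIs (13.4 to 25.8), compared with 7.50% of Myh4-led (5.52 to 9.91), 8.21% of Myh2-led and 8.63% of Myh7-led nuclei. They also made up 17.3% of cKO nuclei with too few myosin UMIs (11.4 to 24.6) and 13.3% of mixed nuclei (8.55 to 19.5), and both of these intervals overlap that of Myh1-led nuclei. In Ctrl the corresponding shares were 5.43% for Myh1 (2.64 to 9.77), 6.91% for Myh4 (5.55 to 8.48), 1.08% for Myh2 and 0 of 11 for Myh7.

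**Figure D2:**
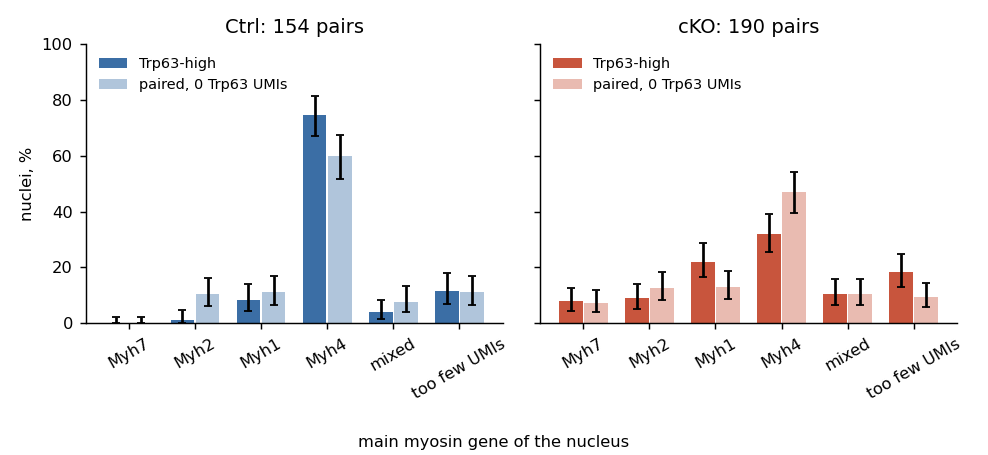
Main myosin gene of Trp63-high nuclei (dark bars) and of nuclei with 0 Trp63 UMIs paired to them by total UMIs (light bars), in percent of nuclei with exact 95% binomial intervals, for 154 Ctrl pairs (left) and 190 cKO pairs (right). Myh4 leads in 74.7% of the Ctrl Trp63-high nuclei and in 32.1% of those of cKO.

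Myh1 and Myh2 UMIs occurred together in 4 of 154 Trp63-high Ctrl nuclei (2.60%, 0.712 to 6.52) and in 32 of their 154 partners (20.8%, 14.7 to 28.0). In cKO they occurred together in 41 of 190 (21.6%) and 29 of 190 (15.3%). After thinning to 1000 UMIs the counts were 0 against 14 in Ctrl, where 0 allows a share of up to 1.95%, and 25 against 14 in cKO. Co-detection of both myosins was thus less frequent than in partners in Ctrl, while the 95% intervals of cKO overlapped at both depths. On the summed scale, Myh7 was at 1.12 CPM in Ctrl Trp63-high nuclei, with 1 UMI in all, and at 375 CPM (335 to 418) in those of cKO, beside 34.1 and 426 CPM in the matched nuclei.

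Genes other than those of the rule were compared as CPM summed over Trp63-high nuclei against CPM summed over the matched nuclei. In Ctrl, 201 of 7348 genes with at least 20 UMIs were 2-fold or more higher (2.74%) and 330 lower (4.49%). In cKO, 260 of 7226 were higher (3.6%) and 505 lower (6.99%). Of 6778 genes that entered in both, 135 were higher in Ctrl and 198 in cKO. Higher in both libraries were 37, which is 27.4% of these 135 and 18.7% of these 198. Another 51 were lower in both, 18.6% of the 274 lower in Ctrl and 12.4% of the 412 lower in cKO. Over all genes the log2 ratio had a median of -0.01 for Ctrl and -0.12 for cKO.

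**Figure D3:**
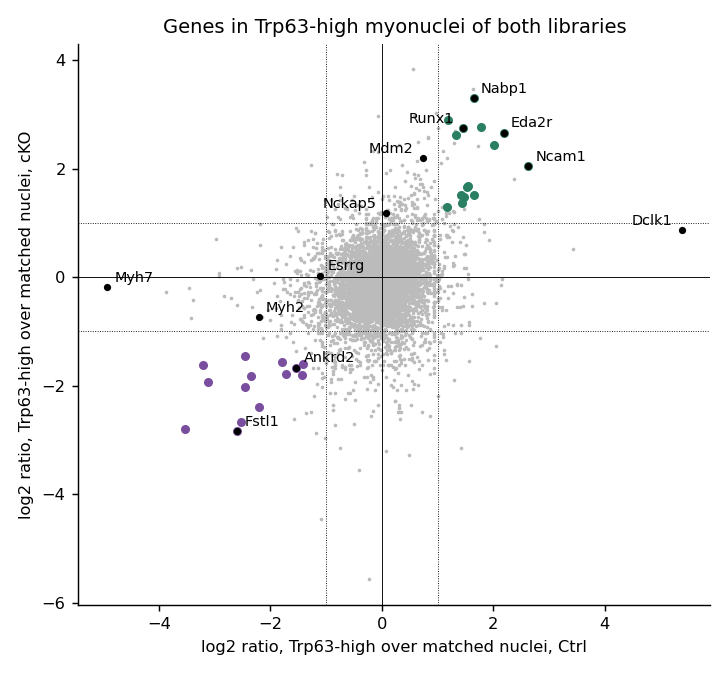
Log2 ratio of CPM in Trp63-high nuclei over matched nuclei with 0 Trp63 UMIs, in Ctrl (x axis) and cKO (y axis), 1 point per gene that entered in both libraries (grey), with dotted lines at 2-fold, the 15 leading higher (green) and lower (purple) genes by the naming rule in colour and labelled genes in black or colour; genes with 0 UMIs in 1 of the sets are not drawn. Eda2r and Ncam1 lie past 2-fold in both libraries, while Myh7 lies at -4.93 in Ctrl and -0.18 in cKO.

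Of the genes higher in both libraries, Eda2r had the largest ratio by the naming rule. Eda2r (chromosome X, 97333840 to 97377216, minus strand) was at 104 CPM (84.1 to 128) in Trp63-high and 22.9 CPM (16.3 to 31.4) in matched nuclei of Ctrl, a log2 ratio of 2.18 (1.63 to 2.76). In cKO it was at 261 CPM (228 to 298) and 41.4 CPM (32.2 to 52.4), a log2 ratio of 2.66 (2.26 to 3.07). Among pairs of like depth, 43 of 154 Trp63-high Ctrl nuclei had Eda2r against 10 partners, and 89 of 190 in cKO against 19. Eda2r was not carried by a few nuclei, since the 3 with most held 17.2% of its UMIs in Ctrl and 9.91% in cKO. In nuclei removed by the marker gate, at 2000 to 6000 UMIs, 9.32% of Ctrl and 11.4% of cKO nuclei had Eda2r, close to the 6.49% and 10.0% of partners. Traf3, an adaptor of tumor necrosis factor receptors, was in 48 against 19 nuclei of the Ctrl pairs and 57 against 24 of the cKO pairs, with log2 ratios of 1.52 (1.07 to 1.98) and 1.67 (1.22 to 2.13).

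Among the other p53 targets, Mdm2 had intervals that did not overlap between the libraries. Mdm2 (chromosome 10, 117688875 to 117710758, minus strand) was at 147 CPM (123 to 175) against 32.4 CPM (24.3 to 42.2) in cKO, which gives 2.19 (1.71 to 2.67) on the log2 scale. In Ctrl it was at 61.6 CPM (46.4 to 80.2) against 37.1 CPM (28.5 to 47.4), a log2 ratio of 0.73 (0.19 to 1.28). In nuclei removed by the marker gate, at 2000 to 6000 UMIs, Mdm2 was in 16 of 118 in Ctrl (13.6%, 7.95 to 21.1) and 8 of 35 in cKO (22.9%, 10.4 to 40.1), beside 26 and 53 of the 154 and 190 Trp63-high nuclei of the pairs (16.9% and 27.9%) and 13 and 17 of their partners. Detection of Mdm2 in Trp63-high nuclei lay within the intervals of the removed nuclei, but the pairs were not limited to that depth. Removed nuclei hold RNA of other cell types and of fibres, with Ttn at 2.16% of UMIs in Ctrl and 1.655% in cKO. They are therefore no blank, and the part of free RNA in the Mdm2 UMIs was not tested. Phlda3 (chromosome 1, 135766119 to 135769136, plus strand) had log2 ratios of 1.33 (0.41 to 2.27) in Ctrl and 2.63 (1.73 to 3.61) in cKO. Of 24 listed p53 targets, 13 entered in Ctrl, where Eda2r, Phlda3 and Gadd45a were past 2-fold higher and none lower, with a median log2 ratio of 0.35. In cKO 11 entered, 6 were higher (Eda2r, Mdm2, Phlda3, Btg2, Trp53inp1 and Ccng1) and none lower, with a median of 1.03. Cdkn1a, the cell cycle inhibitor p21, had too few UMIs to enter, with 10 in Trp63-high and 5 in matched nuclei of Ctrl and 7 and 2 in cKO. Trp53 itself had log2 ratios of 0.32 (-0.50 to 1.12) in Ctrl and -0.20 (-1.14 to 0.69) in cKO, and Trp73 was at 0 and 2 UMIs in the Trp63-high nuclei. None of 10 listed genes of DNA damage sensing and repair that entered was past 2-fold higher in either library, and Xrcc6 was past 2-fold lower in cKO. Nabp1, a single-stranded DNA-binding protein that was not on that list, had log2 ratios of 1.65 (0.63 to 2.72) in Ctrl and 3.30 (2.45 to 4.24) in cKO, but in the Ctrl pairs within 10% of depth the ratio turned to -0.30, with 10 against 9 nuclei holding it.

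The stretches from 250 bases before to 50 after the start of Eda2r, Phlda3 and Mdm2 are shown since these p53 targets had the 3 highest log2 ratios of the listed ones in cKO, taken from RefSeq (GRCm38.p6) and written 5′ to 3′ along the gene. Capitals mark CATG, the core of a p53 family half-site, which reads the same on both strands and is in 61.1% of all promoters of this length.
Eda2r, chrX:97377160-97377459, minus strand: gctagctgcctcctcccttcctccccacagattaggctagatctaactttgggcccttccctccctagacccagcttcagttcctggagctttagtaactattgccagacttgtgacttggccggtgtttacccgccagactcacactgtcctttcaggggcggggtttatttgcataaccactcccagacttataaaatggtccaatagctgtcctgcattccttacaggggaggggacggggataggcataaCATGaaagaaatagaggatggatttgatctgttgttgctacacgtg
Phlda3, chr1:135765835-135766134, plus strand: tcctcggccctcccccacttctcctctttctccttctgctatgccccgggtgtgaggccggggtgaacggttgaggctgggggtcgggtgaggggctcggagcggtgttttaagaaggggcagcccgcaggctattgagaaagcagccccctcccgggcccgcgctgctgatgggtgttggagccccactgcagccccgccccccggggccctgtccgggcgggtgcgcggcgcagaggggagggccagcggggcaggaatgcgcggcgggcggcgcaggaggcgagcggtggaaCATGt
Mdm2, chr10:117710709-117711008, minus strand: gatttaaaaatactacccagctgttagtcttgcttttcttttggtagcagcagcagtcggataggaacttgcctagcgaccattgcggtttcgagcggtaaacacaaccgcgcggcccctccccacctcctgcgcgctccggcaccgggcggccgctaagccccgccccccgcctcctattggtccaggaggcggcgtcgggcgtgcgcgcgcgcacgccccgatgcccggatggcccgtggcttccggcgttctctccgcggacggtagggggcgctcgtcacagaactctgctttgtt
Eda2r and Phlda3 hold CATG once each and Mdm2 does not. Of the 15 leading genes higher in both libraries, 13 had a promoter in the table and 7 of these hold CATG, and so do 10 of the 14 promoters found for the 15 leading lower genes. These letters say nothing of sites outside this window.

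Ncam1, a cell adhesion molecule that adult fibres carry mainly when denervated or regenerating (chromosome 9, 49502136 to 49798925, minus strand), was at 192 CPM (164 to 223) against 31.2 CPM (23.3 to 40.8) in Ctrl, a log2 ratio of 2.62 (2.17 to 3.09). In cKO it was at 291 CPM (256 to 330) against 70.7 CPM (58.6 to 84.7), a log2 ratio of 2.04 (1.72 to 2.37). Its spread over nuclei was unlike in the libraries. In Ctrl, 22 of 178 Trp63-high nuclei had Ncam1 and 3 of them held 64.3% of its UMIs, whereas in cKO 72 of 218 had it and the top 3 held 19.4%. Among pairs it was found in 17 against 9 Ctrl nuclei and in 59 against 13 cKO nuclei. Of the nuclei removed by the marker gate at 2000 to 6000 UMIs, 18 of 118 in Ctrl and 7 of 35 in cKO had Ncam1. Removed nuclei include other cell types, and 31.4% of all those in Ctrl held UMIs of Schwann cell markers. They are therefore no baseline for fibre nuclei, and the pairs were not limited to that depth. Ncam1 detection in Ctrl members, at 17 of 154 in the pairs, was not above that in removed nuclei. The 31.1% of cKO members in the pairs lay within the interval of the removed cKO nuclei (8.44 to 36.9), and was above the 6.84% of partners.

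Runx1, a transcription factor induced by denervation, had log2 ratios of 1.45 (1.04 to 1.87) in Ctrl and 2.74 (2.08 to 3.45) in cKO. The top 3 nuclei held 69.7% of its UMIs in Ctrl and 17.6% in cKO. Of 12 developmental and regeneration genes, 8 entered in Ctrl with 4 higher (Ncam1, Runx1, Ankrd1 and Igfn1) and Csrp3 lower, and 7 in cKO with 3 higher (Ncam1, Runx1 and Ankrd1) and Csrp3 lower. The medians of the list were 0.99 in Ctrl and 0.82 in cKO. Embryonic and neonatal myosins (Myh3 and Myh8) did not reach 20 UMIs in either library. Of the denervation and neuromuscular junction list, 0 of 7 genes were past 2-fold in Ctrl, and in cKO Chrnb1 (1.37, 0.82 to 1.93) and Colq were higher and Etv5 lower among 8. Musk, the receptor kinase of the neuromuscular junction, was at 389 CPM (349 to 432) against 201 CPM (180 to 224) in Ctrl, and at 153 CPM (128 to 182) against 184 CPM (164 to 206) in cKO. The ratios lie on either side of 0 on the log2 scale, at 0.95 (0.73 to 1.17) and -0.27 (-0.57 to 0.03).

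Ltbp1, which binds latent TGF-β in the matrix, had log2 ratios of 2.01 (1.41 to 2.65) in Ctrl and 2.43 (1.92 to 2.97) in cKO. Map1b, a microtubule-associated protein, had 1.79 (1.31 to 2.27) and 2.76 (2.20 to 3.35). Adamts20, a secreted metalloprotease that marks the myotendinous junction in the list used, had 1.19 (0.65 to 1.74) and 2.89 (2.28 to 3.55). Of 8 junction genes, 6 entered, and all 6 had ratios above 1 in both libraries, with median log2 ratios of 1.06 and 0.89. Past 2-fold were Lama2, Col22a1 and Adamts20 in Ctrl, and Itgb1 and Adamts20 in cKO. Adam19, Arhgap18, Atp13a5, Col19a1, Fras1 and Ppfibp1 completed the 15 leading higher genes, at log2 ratios of 1.16 to 1.65 in Ctrl and 1.29 to 1.68 in cKO. In Ctrl, 3 nuclei held 82.2% of the UMIs of Fras1, a basement membrane protein, and 78.3% of those of Adam19, a membrane metalloprotease. Cilp, a matrix protein of cartilage and connective tissue, was chosen for mention after its values were seen. It had 155 UMIs in the 218 cKO nuclei against 10 in 654 matched nuclei, and was found in 45 of 190 Trp63-high nuclei of the pairs and in 0 of their partners, which allows up to 1.58%. In Ctrl it had 14 UMIs, all in 3 nuclei. Of the nuclei removed by the marker gate at 2000 to 6000 UMIs, Cilp was in 6 of 35 in cKO (17.1%) and 16 of 118 in Ctrl (13.6%), and the part of RNA from other cells in its UMIs was not tested.

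**Figure D4:**
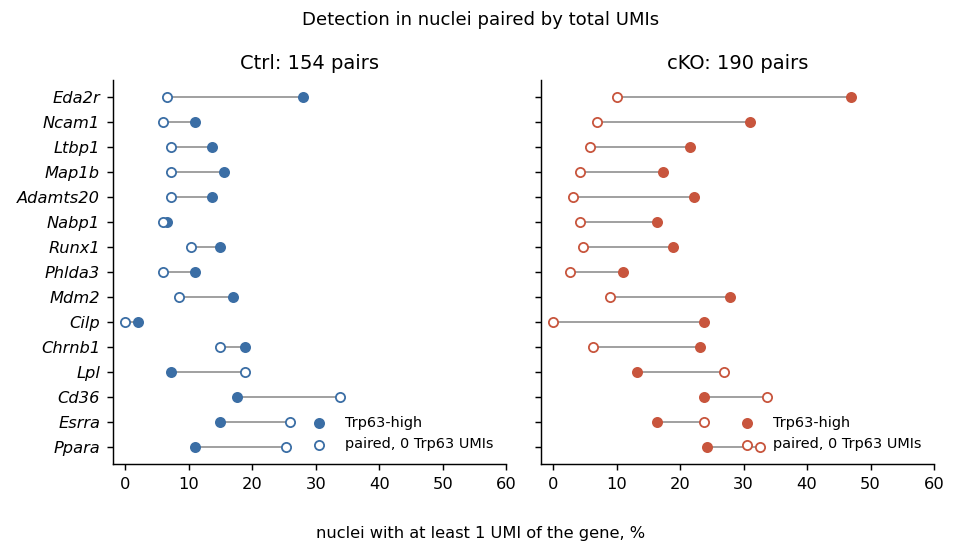
Share of nuclei with at least 1 UMI of each gene (x axis, percent) in Trp63-high nuclei (filled) and in nuclei with 0 Trp63 UMIs paired to them by total UMIs (open), for 154 Ctrl pairs (left) and 190 cKO pairs (right). Eda2r is found in 46.8% against 10.0% of cKO nuclei and 27.9% against 6.49% of Ctrl nuclei, and Lpl and Cd36 are found less often in Trp63-high nuclei of both libraries.

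Genes lower in both libraries included those of fat use. Lpl, lipoprotein lipase, which frees fatty acids for uptake, was at 42.6 CPM (30.1 to 58.5) against 111 CPM (95.9 to 128) in Ctrl, a log2 ratio of -1.38 (-1.93 to -0.88). In cKO it was at 63.6 CPM (47.8 to 83.0) against 156 CPM (138 to 177), a log2 ratio of -1.30 (-1.75 to -0.87). Cd36, the fatty acid transporter, had -1.10 (-1.46 to -0.76) and -1.15 (-1.51 to -0.80). Of 13 genes of oxidative and lipid metabolism, 12 entered in each library. In Ctrl 7 were past 2-fold lower (Lpl, Cd36, Slc27a1, Fabp3, Esrra, Esrrg and Ppara) and in cKO 5 (Lpl, Cd36, Slc27a1, Ppargc1a and Vegfa), with 0 past 2-fold higher and medians of -1.09 and -0.90. Esrrg, a nuclear receptor of oxidative fibres, was lower in Ctrl alone, at -1.11 (-1.25 to -0.97) against 0.03 (-0.06 to 0.12) in cKO. The glycolysis and glycogen list had 0 genes past 2-fold in Ctrl and Pfkfb3 and Ldha lower in cKO, with medians of -0.15 and -0.55.

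Myosin class moved with these values. With partners taken within the same main myosin class, Lpl was at -0.62, Cd36 at -0.55 and Esrrg at -0.47 on the log2 scale in Ctrl, and at -1.23, -1.13 and 0.03 in cKO. Within the 135 Myh4-led Trp63-high nuclei of Ctrl, Lpl was at 0.29 (-0.57 to 1.12) and Cd36 at 0.35 (-0.18 to 0.88), so no lower level was seen there. In the 69 Myh4-led Trp63-high nuclei of cKO, Lpl was at -0.44 (-1.93 to 0.88) and Cd36 at -0.30 (-1.21 to 0.54), intervals that include 0 as well. Within the 45 Myh1-led Trp63-high nuclei of cKO, Lpl was at -2.07 (-3.45 to -0.92) and Cd36 at -1.59 (-2.53 to -0.75). Of the slow fibre list, 5 of 7 genes were past 2-fold lower in Ctrl (Myoz2, Myl2, Atp2a2, Tnnt1 and Ckmt2) and 1 of 11 in cKO (Myl3), at medians of -1.65 and -0.22. None of 12 fast fibre genes was past 2-fold in Ctrl, and Mylpf was higher in cKO.

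Eda2r was also higher within the Myh4-led and Myh1-led nuclei of Ctrl and within each fibre class of cKO. In Ctrl it was at 1.65 (1.03 to 2.29) in Myh4-led nuclei, where 35 of 135 had it. The 16 Myh1-led Ctrl nuclei held 10 Eda2r UMIs against 0 in partners, and mixed nuclei were at 2.17 (-0.19 to 4.85). Eda2r had 0 UMIs in the 3 Myh2-led Ctrl nuclei and in their partners. In cKO it was at 2.64 (1.85 to 3.49) in the 69 Myh4-led, 3.70 (2.63 to 4.98) in the 45 Myh1-led, 4.48 (2.43 to 7.63) in the 18 Myh2-led and 1.81 (0.34 to 3.39) in the 17 Myh7-led nuclei. Ncam1 of Ctrl was held outside the main class, at 0.83 (0.06 to 1.59) in Myh4-led nuclei with 31 UMIs, against 4.07 (3.07 to 5.25) in the 16 Myh1-led nuclei with 84 UMIs and 5.10 (3.65 to 7.03) in the 18 nuclei with too few myosin UMIs, with 50. Runx1 was at -0.82 (-1.73 to 0.02) in Myh4-led Ctrl nuclei and 3.09 (2.13 to 4.17) in Myh1-led ones. Ltbp1 was at 0.74 (-0.02 to 1.49) in Myh4-led Ctrl nuclei. In the Myh1-led ones Ltbp1 was at 4.70 (2.72 to 7.82), from 29 UMIs in 4 nuclei. In Myh4-led cKO nuclei it was at 2.59 (1.46 to 3.86). In cKO, Ncam1 was at 1.29 (0.70 to 1.89) in Myh4-led and 4.14 (2.94 to 5.64) in Myh1-led nuclei, and Mdm2 at 1.07 (0.14 to 2.00) and 3.38 (2.29 to 4.67).

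Many of the 15 leading lower genes had few UMIs in the Trp63-high nuclei. Plcb1, a phospholipase, had 1 UMI in Ctrl and 0 in cKO, against 23 and 42 in matched nuclei. Fstl1, a secreted glycoprotein of connective tissue, had 2 and 2 against 23 and 28, and Slc1a5, a glutamine transporter, 1 and 3 against 22 and 41. The others were 2310016D03Rik, 2900009J06Rik, Agmo, Ankrd2, Asah2, Ctdspl, Cux2, Fbxl7, Itga1, Medag, Ndufa6 and Pid1, at log2 ratios of -3.20 to -1.41 in Ctrl and -2.67 to -1.46 in cKO. In summed CPM, adipocyte markers were lower too in the Trp63-high nuclei of both libraries, and their part in the result was not tested. Detection went the other way in Ctrl, at 5.06% of Trp63-high against 2.25% of matched nuclei (9 against 29 UMIs). In cKO it was 0.917% against 1.68%. The 5 adipocyte markers summed to 17.1 CPM in matched and 10.1 CPM in Trp63-high nuclei of Ctrl, with Adipoq and Plin1 at 0 in the latter, and to 52.2 and 2.36 CPM in cKO, where Adipoq, Pparg and Cidec were at 0. The other lists were not all lower, with satellite cell markers at 71.7 CPM in Trp63-high and 54.7 CPM in matched nuclei of Ctrl and at 51.8 and 61.2 CPM in cKO, and Schwann cell markers at 19.1 and 18.2 CPM in Ctrl and 11.8 and 16.2 CPM in cKO. Against matched nuclei that held no UMI of the satellite cell, adipocyte, Schwann cell, tenocyte, immune, FAP and endothelial markers, Slc1a5 of cKO turned to 2.41 on the log2 scale, Agmo of cKO to 0.33, and Ctdspl to 0.71 in Ctrl and 0.33 in cKO. In all, 17 named ratios of Trp63-high over matched nuclei were past 2-fold but no longer so, in the same direction, against these marker-free nuclei. Ratios of cKO over Ctrl were not set against marker-free nuclei. Medag fell short of 2-fold (-0.61 and -0.18), as did Fstl1 in Ctrl (-0.61, beside -1.76 in cKO) and Pid1 in cKO (-0.25, beside -1.29 in Ctrl). Ankrd2, a stretch-responsive protein of slow fibres, stayed at -1.37 and -1.48, Lpl at -1.08 and -1.13, Eda2r at 2.67 and 2.73, and Ncam1 at 2.61 and 2.39.

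The atrophy ubiquitin ligases were within 2-fold of matched nuclei over all Trp63-high nuclei. Fbxo32 (atrogin-1) was at 1429 CPM (1352 to 1510) against 1215 CPM (1163 to 1268) in Ctrl, a log2 ratio of 0.23 (0.13 to 0.34), and at 484 CPM (438 to 533) against 490 CPM (457 to 525) in cKO, -0.02 (-0.19 to 0.16). Trim63 (MuRF1) was at 1737 CPM against 1403 CPM in Ctrl and 801 against 608 CPM in cKO, with ratios of 0.31 (0.22 to 0.40) and 0.40 (0.26 to 0.54). Of 13 genes of the ubiquitin ligase, Foxo and autophagy list that entered, Traf6 was past 2-fold higher in Ctrl and Ampd3 in cKO. None was past 2-fold lower.

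Levels also differed across Trp63 counts on both sides of the threshold. Among nuclei of 2000 to 6000 UMIs in cKO, Eda2r went from 37.1 CPM at 0 Trp63 UMIs (27.6 to 49.0, 482 nuclei) through 68.0 CPM at 1 to 2, 128 CPM at 3 to 4 and 220 CPM at 5 to 9 to 507 CPM at 10 or more (403 to 630, 39 nuclei). In Ctrl it went from 20.7 CPM (732 nuclei) through 42.6, 58.1 and 92.3 CPM to 178 CPM (81.5 to 338, 13 nuclei). Lpl went down over the same steps, from 107 through 57.9, 33.2 and 30.8 CPM to 0 UMIs in Ctrl, and from 151 through 137 and 107 CPM at 3 to 4 to 12.5 CPM at 10 or more in cKO. Cd36 in Ctrl went from 210 CPM to 67.7 CPM at 5 to 9 Trp63 UMIs but was at 337 CPM (196 to 539) in the 13 nuclei at 10 or more. Mdm2 in cKO was at 29.7, 42.4, 103, 95.7 and 357 CPM. In Ctrl it stayed between 37.8 and 46.1 CPM up to 9 Trp63 UMIs and was at 178 CPM in the 13 nuclei above. Trim63 was at 1397 CPM at 0, 1867 CPM at 5 to 9 and 2060 CPM at 10 or more in Ctrl (1683 to 2496 for the last), and at 620, 765 and 1233 CPM in cKO (1067 to 1418 for the last). Median depth was also larger along these steps, from 2661 to 3911 UMIs in Ctrl and from 2567 to 4091 in cKO.

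**Figure D5:**
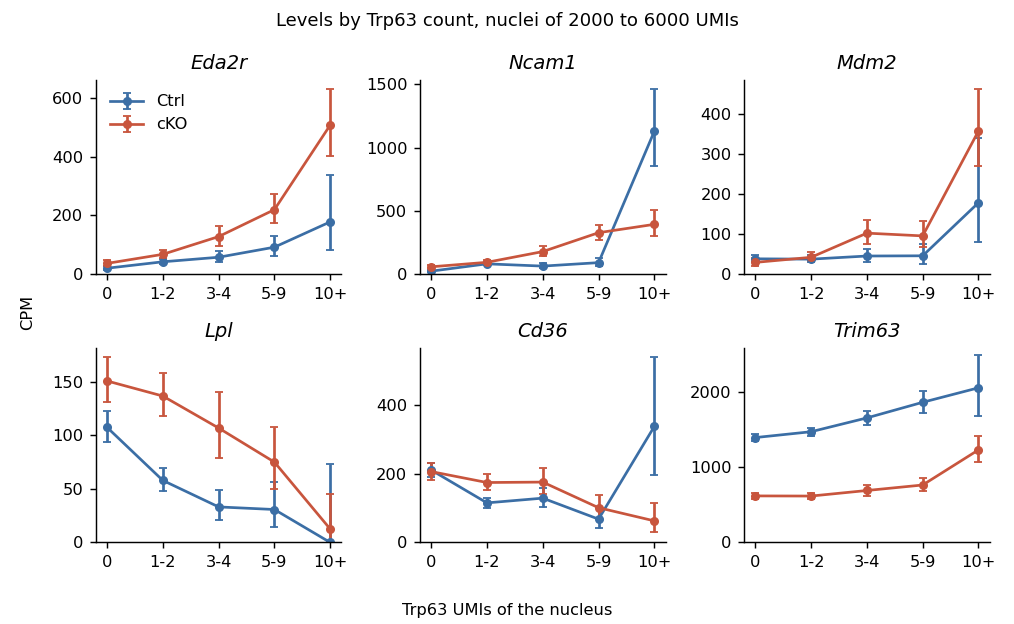
CPM of 6 genes (y axes) in gated nuclei of 2000 to 6000 UMIs with 0 Atf3 UMIs, grouped by their Trp63 UMIs (x axes), with exact 95% Poisson intervals, for Ctrl (blue) and cKO (red). Eda2r is higher at each step in both libraries and Lpl lower, while Ncam1 in Ctrl stays under 100 CPM up to 9 Trp63 UMIs; the last Ctrl point rests on 13 nuclei.

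The Trp63-high nuclei of the libraries were then compared with each other. Of 6194 genes that entered, 412 were 2-fold or more higher in cKO (6.65%) and 551 lower (8.9%), and the median log2 ratio was -0.13.

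Several large differences between the libraries were also present in nuclei without Trp63. Nckap5 had 23.5 CPM in Ctrl against 1247 CPM in cKO, at a log2 ratio of 5.73 (5.11 to 6.43), beside 4.63 (4.16 to 5.14) in matched nuclei. Fkbp5, a glucocorticoid-induced chaperone, had 504 CPM in Ctrl against 14.1 CPM in cKO, at -5.16 (-6.12 to -4.34), beside -4.10 (-4.56 to -3.68). Frem2, a basement membrane protein, had 2 UMIs in Ctrl and 109 in cKO, a ratio of 5.84 (3.95 to 8.90), beside 4.09 (2.46 to 6.41). Gpr179 and Sln, the calcium pump inhibitor sarcolipin, had 0 UMIs in Ctrl and 58 and 62 in cKO, at least 4.34 and 4.44 on the log2 scale with Ctrl set to 3 UMIs. The matched nuclei held 2 Gpr179 UMIs in Ctrl against 194 in cKO, and 0 against 62 of Sln. Slow fibre genes were higher in the cKO nuclei, with 8 of 10 past 2-fold and a median of 3.33, beside 2.88 in matched nuclei, and Tnnt1, with 2 UMIs in Ctrl, was at 6.23 (4.35 to 9.29) beside 3.28. Fbxo32 was at -1.56 (-1.73 to -1.40) beside -1.31 (-1.43 to -1.19), and Trim63 at -1.12 (-1.25 to -0.99) beside -1.21 (-1.31 to -1.10).

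Among p53 targets, 3 of 11 were past 2-fold higher in cKO (Eda2r, Mdm2 and Btg2) and Gadd45a lower, with a median of 0.65 beside -0.19 in matched nuclei. Eda2r was at 1.33 (0.97 to 1.69) beside 0.85 (0.26 to 1.46), and Mdm2 at 1.26 (0.79 to 1.74) beside -0.19 (-0.75 to 0.35). The Mdm2 intervals of the Trp63-high and matched nuclei did not overlap, and those of Eda2r did. Musk was at -1.34 (-1.65 to -1.05) beside -0.13 (-0.36 to 0.10). In cKO, 46 of 218 Trp63-high nuclei had both Eda2r and Ncam1 and 85 had neither, and in Ctrl 9 of 178 had both and 112 neither.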

How the data were processed

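The authors made the deposited raw UMI counts per gene and barcode with Cell Ranger 3.1.0 on mm10/GRCm38. The annotation release and intron handling are not given in the sources used here. The labels and methods name different kit versions, and the titles speak of mouse 1 but the protocol of pooled muscles. Coordinates came from GENCODE M21, in which 27645 of 27998 gene identifiers were found.

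Groups followed the labels. Members and lists were chosen with earlier results of these data known. CPM was the summed UMIs of a gene over all UMIs of a set. Matched nuclei were taken without replacement, deepest member first. Shares have exact Clopper-Pearson, CPM exact Poisson and ratios exact conditional 95% intervals. For a count of 0, limits and bounds used 3 counts.

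Named were the 15 highest and 15 lowest genes by the ratio nearer to 1 of the libraries, with at least 20 UMIs in either set of both and intervals excluding 1, the 10 highest and 10 lowest of cKO over Ctrl with at least 50 UMIs, list genes with at least 50 UMIs in members and past 2-fold, and Trp63, Atf3, Plpp7, the 4 myosins, Fbxo32 and Trim63. Other named genes were chosen after their values were seen. The Scrublet threshold (scanpy 1.11.5, expected rate 0.06) called 0 doublets in either library, so removal of the top 8% of scores was an alternative. The code was tested on simulated data and run with Python 3.11.15, numpy 2.4.6, scipy 1.17.1 and pandas 2.3.3.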

Additional observations from a re-analysis of the deposited data

Results flagged for a closer look

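For 5 genes the ratio of Trp63-high over matched nuclei was past 2-fold in opposite directions in the libraries, with intervals excluding 1 in both. With 1 library per group, the differences between the groups were not tested. Chrm3, a muscarinic receptor, was at 1.56 on the log2 scale in Ctrl, where 3 nuclei held 32 of 59 UMIs, and at -1.55 in cKO, with 4 UMIs in Trp63-high nuclei. Lactb, a mitochondrial protein, was at 1.30 in Ctrl and -1.90 in cKO, with 22 and 3 UMIs in Trp63-high nuclei. Meg3, a long noncoding RNA, was at -1.26 in Ctrl and 2.07 in cKO, where 3 nuclei held 73 of 79 UMIs. Opcml, a cell adhesion molecule, was at 1.43 in Ctrl and -3.14 in cKO. Rbbp7, a histone-binding protein, was at 1.09 in Ctrl and -1.05 in cKO.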

How the results depend on the processing

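No paired analysis was possible because each group had 1 library. The share of Trp63-high nuclei in Ctrl and cKO was 8.31% and 8.33% at a minimum of 4 Trp63 UMIs, 1.60% and 2.44% at a minimum of 8, and 3.11% and 4.63% after thinning to 1000 UMIs. It was 2.90% and 5.33% after thinning to 2000 UMIs, and 5.38% and 6.69% with at least 1000 UMIs per nucleus. At 1500 CPM or more it was 5.68% (4.94 to 6.50) in Ctrl and 7.57% (6.75 to 8.46) in cKO, intervals that do not overlap. The Myh4-led share of Ctrl members was 64.3% at a minimum of 8, beside 60.1% of their matched nuclei. In cKO it was 48.8% of members and 51.1% of matched nuclei after thinning to 1000 UMIs, counting nuclei that kept 3 myosin UMIs, and 46.8% of matched nuclei with pairs within 10% of depth.

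Genes 2-fold or more lower in Ctrl, cKO and both numbered 197, 320 and 26 with 1 nearest nucleus. With the nuclei that held most UMIs of each gene left out they numbered 176, 254 and 29. With CPM averaged over single nuclei they numbered 534 in Ctrl and 90 in both. With pairs within 10% of depth they numbered 301 in cKO and 32 in both, and with matched nuclei free of other cell type markers 28 in both. With at least 50 UMIs per gene, where fewer genes were tested, 50, 126 and 16 were higher and 92, 134 and 13 lower, and 193 and 258 were higher and lower in cKO over Ctrl. Pairs within 10%, marker-free matched nuclei and the omission of top nuclei were chosen after seeing the data.

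Of 98 named values past 2-fold, 61 stayed past it under every alternative that gave a value. Directions turned for Nabp1 in Ctrl (-0.30 with pairs within 10%) and, against marker-free nuclei, for Ctdspl in Ctrl (0.71) and for Ctdspl (0.33), Agmo (0.33) and Slc1a5 (2.41) in cKO. The cause was not tested. Depth limits detection in shallow nuclei, and the 3 muscles pooled in each library cannot be told apart.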

Other observations

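In Ctrl, a few Trp63-high nuclei held most of the UMIs of some genes. Dclk1, a microtubule-associated kinase, had 240 UMIs in the Trp63-high nuclei of Ctrl, and 236 of them were in 3 nuclei. The same 3 nuclei held 101 of the 171 Ncam1 UMIs and 80 of the 122 Runx1 UMIs. Kcnip4, a potassium channel-interacting protein, had 119 UMIs in 6 nuclei, 113 of them in 1 nucleus. In cKO, Dclk1 and Kcnip4 had 13 and 4 UMIs in the Trp63-high nuclei.

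Of 14 glucocorticoid-responsive genes, 10 entered the comparison of cKO with Ctrl Trp63-high nuclei and all 10 were lower in cKO, with 4 past 2-fold (Fkbp5, Pdk4, Sgk1 and Zbtb16) and a median log2 ratio of -0.87, beside -0.89 in matched nuclei. The same list had 0 genes past 2-fold between Trp63-high and matched nuclei in either library. Of 15 nuclear envelope genes, Wfs1 was past 2-fold lower in Ctrl, and Plpp7 (-1.39, -2.29 to -0.58) and Syne2 in cKO. None of the 6 Mef2 and class IIa HDAC genes was past 2-fold in Trp63-high over matched nuclei. Fos, of the immediate early genes, was at 1.36 in cKO, while Nr4a2 and Nr4a3 were past 2-fold lower there. Calcium handling genes had 0 of 9 past 2-fold in Ctrl and Myom1 lower in cKO.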
